A study of Mus musculus with 4 samples.

Results

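Cytosolic ribosomal protein genes were examined in small-intestinal adenomas of mice that carried the Apc Min allele, a truncating mutation in the tumour suppressor Apc, with and without a knockout of PAF, a PCNA-associated factor. The members were all rows of the deposited table whose symbol named a protein of the large subunit (Rpl or Rplp) or of the small subunit (Rps or Rpsa), with the Rps6 kinases left out. This gave 80 of 29871 rows, 49 of the large and 31 of the small subunit. There were 2 libraries from adenomas of genotype PAF KO; APC Min/+ (PAF KO 1 and PAF KO 2) and 2 from adenomas of genotype APC Min/+ (WT 1 and WT 2), so all 4 libraries carry the Apc Min allele and "WT" refers to PAF only. The labels give no age or sex and do not state whether the knockout was whole-body or restricted to some cells. Nor do they say that the libraries of a group came from separate animals, so p-values measure only the spread between these libraries. By the sex-linked rows given below, PAF KO 1 and PAF KO 2 came from different animals, while the WT spread may be technical. Levels are FPKM, the number of fragments scaled to transcript length and library depth, as deposited.

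The cytosolic ribosome is built from a large and a small subunit, each an rRNA core bound by many proteins, most of them present once in each ribosome, and the mRNAs of these proteins are among the most abundant in dividing cells. Transcription of the genes is raised by Myc, a target of the Wnt signalling that loss of Apc switches on, and translation of the mRNAs is controlled by the TOR kinase through the terminal oligopyrimidine tract at their 5′ ends. The mouse genome also holds many processed pseudogenes of this family, intron-less copies of the mRNA, so that a short read from a ribosomal protein mRNA often matches several places.

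The libraries differed in ways that the genotype label does not name, and PAF KO 2 stood apart. The PAF row, 2810417H13Rik, read 4.13 and 11.4 FPKM in the PAF KO libraries, against 17.9 and 17.8 FPKM in WT (log2 fold change -1.24, SE 0.484; limma adjusted p = 0.398). In PAF KO 2 the Y-linked gene Eif2s3y was listed at 0 and Xist, which coats the inactive X of female cells, at 46.4 FPKM, while the other 3 libraries listed Xist at 0.00438 to 0.00861 FPKM and Eif2s3y at 26.0 to 31.7 FPKM. Depth, estimated from the most common value of FPKM times length among rows near the level of 1 fragment, was about 14800000 and 23400000 fragments for PAF KO 1 and PAF KO 2, against 12900000 and 16900000 for WT 1 and WT 2. Of 13716 tested rows, limma called 10, which is 0.0729%. Summed over 5 epithelial markers (Epcam, Cdh1, Krt8, Krt18 and Vil1), the level was 4211 and 5031 FPKM in PAF KO 1 and 2, against 4361 and 4146 FPKM in WT. Over 6 enterocyte markers the sums were 9482 and 802 FPKM in PAF KO 1 and 2, against 6971 and 7546 FPKM in WT, and over 5 smooth muscle markers 174 and 625 FPKM, against 146 and 148 FPKM in WT. The enterocyte markers did not move alike in PAF KO 1. Sis read 71.8 and 56.4 FPKM in PAF KO 1 and 2, against 180 and 171 FPKM in WT, and Fabp2 was also lower in both. Apoa4, at 3251 and 10.2 FPKM, against 948 and 972 FPKM, was above WT in PAF KO 1 alone, as were Alpi and Lct. Apoa1, at 4799 and 381 FPKM, against 4619 and 5001 FPKM, was within the WT range in PAF KO 1. The sums in PAF KO 1 and 2, against WT 1 and WT 2, were 318 and 665 against 250 and 253 FPKM for fibroblasts, 16.7 and 22.0 against 41.4 and 39.7 FPKM for T and NK cells, 194 and 850 against 242 and 230 FPKM for B and plasma cells, 80.5 and 148 against 113 and 126 FPKM for macrophages, 421 and 230 against 268 and 329 FPKM for neutrophils, and 62.9 and 53.2 against 48.5 and 41.4 FPKM for red cells. Lcn2, which epithelium also makes, held most of the neutrophil sum, with 279 and 137 FPKM in PAF KO 1 and 2, against 252 and 304 FPKM in WT. The other 4 neutrophil markers were higher in both PAF KO libraries than in either WT library, S100a8 with 63.1 and 51.0 FPKM, against 6.59 and 13.2 FPKM in WT, S100a9 with 75.0 and 39.5 FPKM, against 8.72 and 10.95 FPKM, Csf3r with 2.66 and 1.61 FPKM, against 0.369 and 0.311 FPKM, and Cxcr2 with 0.774 and 0.789 FPKM, against 0.0970 and 0.219 FPKM. Limma called none of the first 3, and Cxcr2 was too low to be tested. None of the listed markers was at 0 in all 4 libraries, and the part of these cells, of depth and of sex in the results below was not tested. The labels give the same protocol and tools for all 4 libraries but state no read length or settings, so whether PAF KO 2 was sequenced and processed exactly like the others is not known here, a limit on every PAF KO 2 value below.

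No ribosomal protein row was called between PAF KO and WT adenomas. A row was tested when it averaged at least 1 FPKM over the 4 libraries, which held for 43 of 49 large-subunit and 31 of 31 small-subunit rows. Of these 74 rows, limma on log2(FPKM + 1) called 0 at an adjusted p under 0.05, beside 0.0729% of all tested rows. It found 0 members with an unadjusted p under 0.05, where 13.2% of all tested rows had such an unadjusted p. Limma also called 0 of the 12644 tested protein-coding rows, so the lack of calls is not particular to the members. The smallest adjusted p of a member was 0.449, and a missed threshold with 2 libraries per group does not show that a row did not differ. Fold changes on this scale understate the change of rows with low FPKM. Large-subunit rows had a median log2 fold change of -0.09, with 20 positive and 23 negative, and small-subunit rows of 0.29, with 21 positive and 10 negative, beside a median of 0.00 over all tested rows. Both medians had the other sign without PAF KO 2, at 0.01 for the large and -0.02 for the small subunit. In bulk tissue, fewer cells of a type and less RNA per cell cannot be told apart.

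The absence of calls had a different look in each PAF KO library. PAF KO 1 matched the WT libraries closely: over the 74 tested members its log2 values differed from WT 1 and WT 2 by a median of 0.138 and 0.209, and WT 1 differed from WT 2 by 0.157. Over all tested rows, PAF KO 1 differed from WT 1 and WT 2 by 0.280 and 0.260, against 0.0882 between the WT libraries. The distance of the members of PAF KO 1 from WT was thus close to that between the WT libraries, while over all rows it was larger. PAF KO 2 differed from WT 1 and WT 2 by 1.15 and 1.24 over the members and by 0.525 and 0.534 over all tested rows. For 43 of the 74 members, the distance of PAF KO 1 from the WT mean was smaller than that between WT 1 and WT 2. A mean of 2 libraries varies less than a single library, so the first distance tends to be the smaller even without a difference. The share over all tested rows is not given here.

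**Figure D1:**
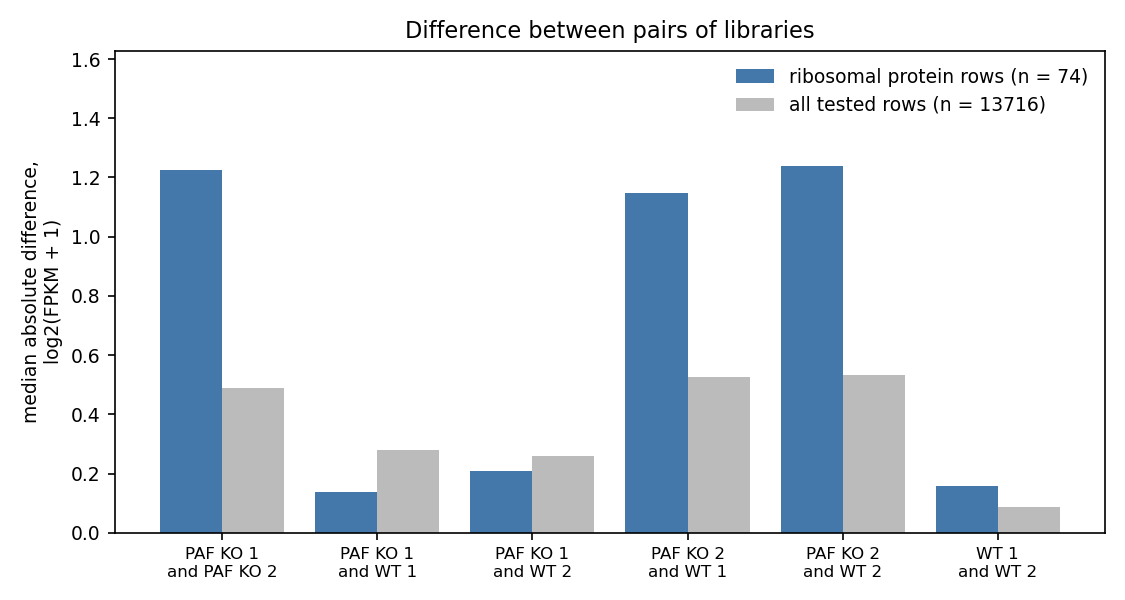
Median absolute difference in log2(FPKM + 1) for each pair of libraries, over the 74 tested ribosomal protein rows (blue) and all 13716 tested rows (grey). Pairs with PAF KO 2 show member differences of 1.15 to 1.24, and pairs without it 0.138 to 0.209.

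Past a difference of 2-fold from the WT mean, PAF KO 1 had 0 of 74 members, where 7.42% of all tested rows were past it. PAF KO 2 had 43 of 74 members past 2-fold, 25 higher and 18 lower, where 20.9% of all tested rows were. Past 4-fold, PAF KO 1 had 0 members beside 1.94% of all tested rows, and PAF KO 2 had 17 members beside 4.59%. The large subunit gave 12 rows higher and 14 lower than 2-fold in PAF KO 2, and the small subunit 13 higher and 4 lower. With the knockout reduced to PAF KO 1, limma called 1 of 74 members beside 20.7% of all tested rows, and with the knockout reduced to PAF KO 2 it called 55 of 74, 32 higher and 23 lower, beside 61.2%. In both of these fits the lone library was assumed to vary as the WT libraries do.

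**Figure D2:**
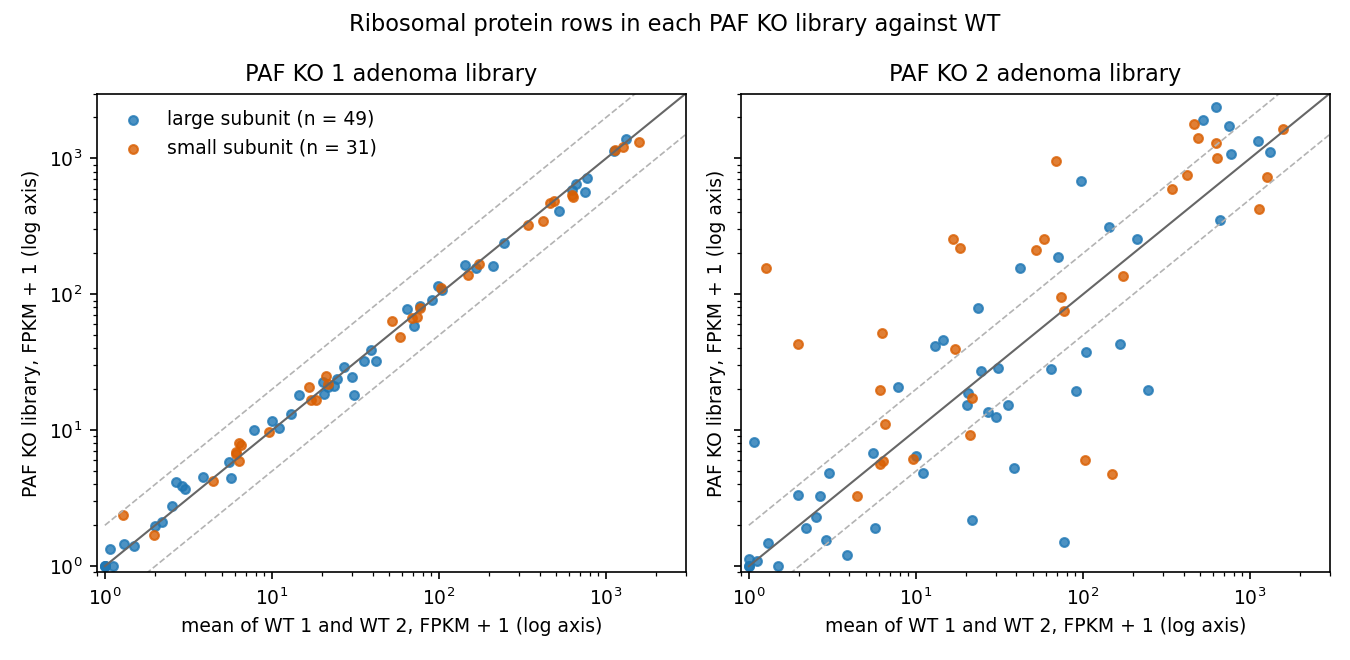
Each point is 1 of the 80 ribosomal protein rows, large subunit in blue and small in orange, with FPKM + 1 in PAF KO 1 (left) or PAF KO 2 (right) against the mean of the WT libraries, on log axes; the solid line marks equal values and dashed lines a 2-fold difference. Points follow the line in PAF KO 1 (Pearson r across rows of 0.996 and 0.995 with WT 1 and WT 2 over the tested members) and scatter to both sides in PAF KO 2 (0.766 and 0.770).

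Taken as sums, ribosomal protein rows held 2.62% of all FPKM in PAF KO 1 and 3.97% in PAF KO 2, against 2.72% in WT 1 and 2.99% in WT 2. The large subunit held 1.29% and 1.97% in PAF KO 1 and 2, against 1.35% and 1.43% in WT. The small subunit held 1.33% and 2.003% in PAF KO 1 and 2, against 1.37% and 1.56% in WT. PAF KO 1 lay just below both WT libraries and PAF KO 2 above them for either subunit, so the groups overlapped in range.

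The stalk of the large subunit, which recruits elongation factors, consists of Rplp0 bound by the acidic proteins Rplp1 and Rplp2. Rplp1, the most abundant large-subunit row, read 1386 and 1114 FPKM in PAF KO 1 and 2, against 1285 and 1359 FPKM in WT. Rplp0 read 643 and 353 FPKM, against 675 and 643 FPKM, with a log2 fold change of -0.47 (SE 0.369, n = 2 per group; limma adjusted p = 0.580). Rplp2 read 238 and 18.9 FPKM, against 235 and 256 FPKM. The 3 stalk rows thus stood within 10% of the WT mean in PAF KO 1, while in PAF KO 2 they lay at 0.843, 0.536 and 0.077 times the WT mean in the order Rplp1, Rplp0, Rplp2.

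Around the catalytic centre, Rpl3 was the member called with PAF KO 1 alone. It read 17.1 and 27.6 FPKM in PAF KO 1 and 2, against 30.3 and 30.0 FPKM in WT, with a log2 fold change of -0.45 (SE 0.282, 2 libraries per group; limma adjusted p = 0.524), which was -0.79 (SE 0.0617; limma adjusted p = 0.0224) without PAF KO 2. Both PAF KO values lay below both WT values. Rpl8, which lines the same centre, read 1129 and 1333 FPKM, against 1096 and 1137 FPKM in WT, and Rpl4, which extends into the exit tunnel, 718 and 1083 FPKM, against 757 and 774 FPKM. Rpl10, which is added late and is needed for the subunits to join, read 3.44 and 0.922 FPKM, against 4.22 and 5.13 FPKM in WT, with no overlap between the groups and a log2 fold change of -0.95 (SE 0.480; limma adjusted p = 0.459).

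Rpl5 and Rpl11 bind 5S rRNA and, when ribosome assembly stalls, the p53 inhibitor Mdm2, which Rpl23 can bind as well. Rpl5 read 4.81 and 5.82 FPKM in PAF KO 1 and 2, against 4.67 and 4.35 FPKM in WT. Rpl11 read 0.986 and 2.32 FPKM, against 0.824 and 1.14 FPKM. Rpl23, listed much higher, read 77.2 and 27.5 FPKM, against 61.3 and 65.1 FPKM in WT. Only Rpl5 among these 3 rows had PAF KO values above both WT values, and its range over the libraries was narrow.

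Of the other large-subunit rows, the extremes in PAF KO 2 lay on both sides. Rpl7a read 81.5 and 0.497 FPKM in PAF KO 1 and 2, against 81.5 and 70.8 FPKM in WT, which put PAF KO 2 at 0.00652 times the WT mean. Rpl37 read 19.9 and 1.17 FPKM, against 18.1 and 23.3 FPKM, and Rpl36a 38.0 and 4.31 FPKM, against 44.1 and 31.8 FPKM. In each of these rows PAF KO 1 lay within or beside the WT range and PAF KO 2 far below it. Rpl41, a very short basic protein between the subunits, read 580 and 2389 FPKM, against 565 and 675 FPKM in WT. Rpl39, a protein of the exit tunnel, read 31.2 and 155 FPKM, against 32.2 and 50.2 FPKM. Rpl22, an RNA-binding protein known for its part in T cell development, read 57.8 and 189 FPKM, against 73.7 and 66.5 FPKM. In the last 3 rows PAF KO 2 lay above the other libraries, and PAF KO 1 below or within the WT range.

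Groups did not overlap for 8 higher and 4 lower of the 43 tested large-subunit rows and for 5 higher and 1 lower of the 31 small-subunit rows, where 21.5% of all tested rows were higher without overlap and 30.2% lower. Besides Rpl3, Rpl10 and Rplp0, the lower large-subunit row was Rpl18, at 23.7 and 11.5 FPKM in PAF KO 1 and 2, against 27.8 and 30.3 FPKM in WT (log2 fold change -0.77, SE 0.388; limma adjusted p = 0.458). Among the higher rows, Rpl29 read 114 and 683 FPKM, against 86.9 and 107 FPKM (1.53, SE 0.951; limma adjusted p = 0.524). Rpl27a read 17.1 and 45.3 FPKM, against 13.1 and 13.9 FPKM, and Rpl31, which sits at the exit of the tunnel, 9.03 and 19.9 FPKM, against 6.04 and 7.68 FPKM. In Rpl18, Rpl29, Rpl27a and Rpl31 PAF KO 2 stood farther from WT than PAF KO 1. Rpl15 read 12.2 and 40.5 FPKM, against 12.1 and 12.1 FPKM in WT, and Rpl21 2.69 and 3.87 FPKM, against 2.27 and 1.80 FPKM. Rpl23a, which binds emerging nascent chains near the tunnel exit, read 0.333 and 7.23 FPKM, against 0 in WT 1 and 0.146 FPKM in WT 2. In Rpl15 PAF KO 1 lay close to both WT libraries, so that the groups were set apart by PAF KO 2. The other higher rows were Rpl5, described above, and Rpl19, at 3.19 and 2.26 FPKM, against 1.54 and 1.80 FPKM in WT, where PAF KO 1 was the farther library.

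In the small subunit, Rps15, close to the decoding site, was among the most abundant rows. It read 1209 and 724 FPKM in PAF KO 1 and 2, against 1148 and 1370 FPKM in WT. Rps26 and Rps14, neighbours at the mRNA exit, lay on opposite sides of both WT libraries in PAF KO 2. In both rows the groups overlapped. Rps26 read 1149 and 424 FPKM, against 949 and 1305 FPKM in WT, and Rps14 516 and 997 FPKM, against 565 and 696 FPKM.

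Rps3 and Rps2 form the mRNA entry, and Rps6 is the substrate for which S6 kinase is named. Rps3 read 347 and 753 FPKM in PAF KO 1 and 2, against 414 and 424 FPKM in WT. Rps2 read 19.7 and 253 FPKM, against 16.0 and 15.2 FPKM, with a log2 fold change of 2.13 (SE 1.32, n = 2 per group; limma adjusted p = 0.523). Rps6 read 5.94 and 18.9 FPKM, against 5.55 and 4.62 FPKM (0.95, SE 0.577; limma adjusted p = 0.515). The groups of Rps2 and Rps6 did not overlap, but PAF KO 1 lay close to WT in both. Rpsa, a ribosomal protein also described as a laminin receptor, read 15.6 and 219 FPKM, against 15.3 and 19.2 FPKM in WT.

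Several small-subunit genes are mutated in Diamond-Blackfan anaemia, a human disorder of red cell production, among them RPS19 and RPS24. In the mouse adenomas Rps19 read 47.7 and 255 FPKM in PAF KO 1 and 2, against 57.7 and 57.0 FPKM in WT. Rps24 read 62.6 and 210 FPKM, against 43.3 and 59.6 FPKM, with no overlap between the groups (log2 fold change 1.16, SE 0.666; limma adjusted p = 0.496). In Rps19 the PAF KO values stood on both sides of WT. Rps28 read 1.39 and 155 FPKM, against 0.552 FPKM in WT 1 and a listing at 0 in WT 2. Its log2 fold change was 3.96 (SE 2.20; limma adjusted p = 0.487), and since it depends on the pseudocount it became 7.62 with 0.01 FPKM in place of 1. Rps16 went the other way, at 138 and 3.78 FPKM, against 152 and 145 FPKM in WT (log2 fold change -2.54, SE 1.77; limma adjusted p = 0.554). Rps12 read 6.84 and 10.1 FPKM, against 5.73 and 5.39 FPKM in WT, and had the smallest adjusted p of the family.

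Rps27 has a close paralog, Rps27l, which p53 can induce. Rps27l read 65.5 and 948 FPKM in PAF KO 1 and 2, against 72.0 and 64.0 FPKM in WT, while Rps27 read 7.04 and 4.90 FPKM, against 4.64 and 6.15 FPKM. Rps27a, made as a fusion with ubiquitin, read 5.68 and 4.67 FPKM, against 5.24 and 4.96 FPKM. PAF KO 2 was thus at 13.9 times the WT mean for Rps27l, and for Rps27 and Rps27a within 10% of it.

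**Figure D3:**
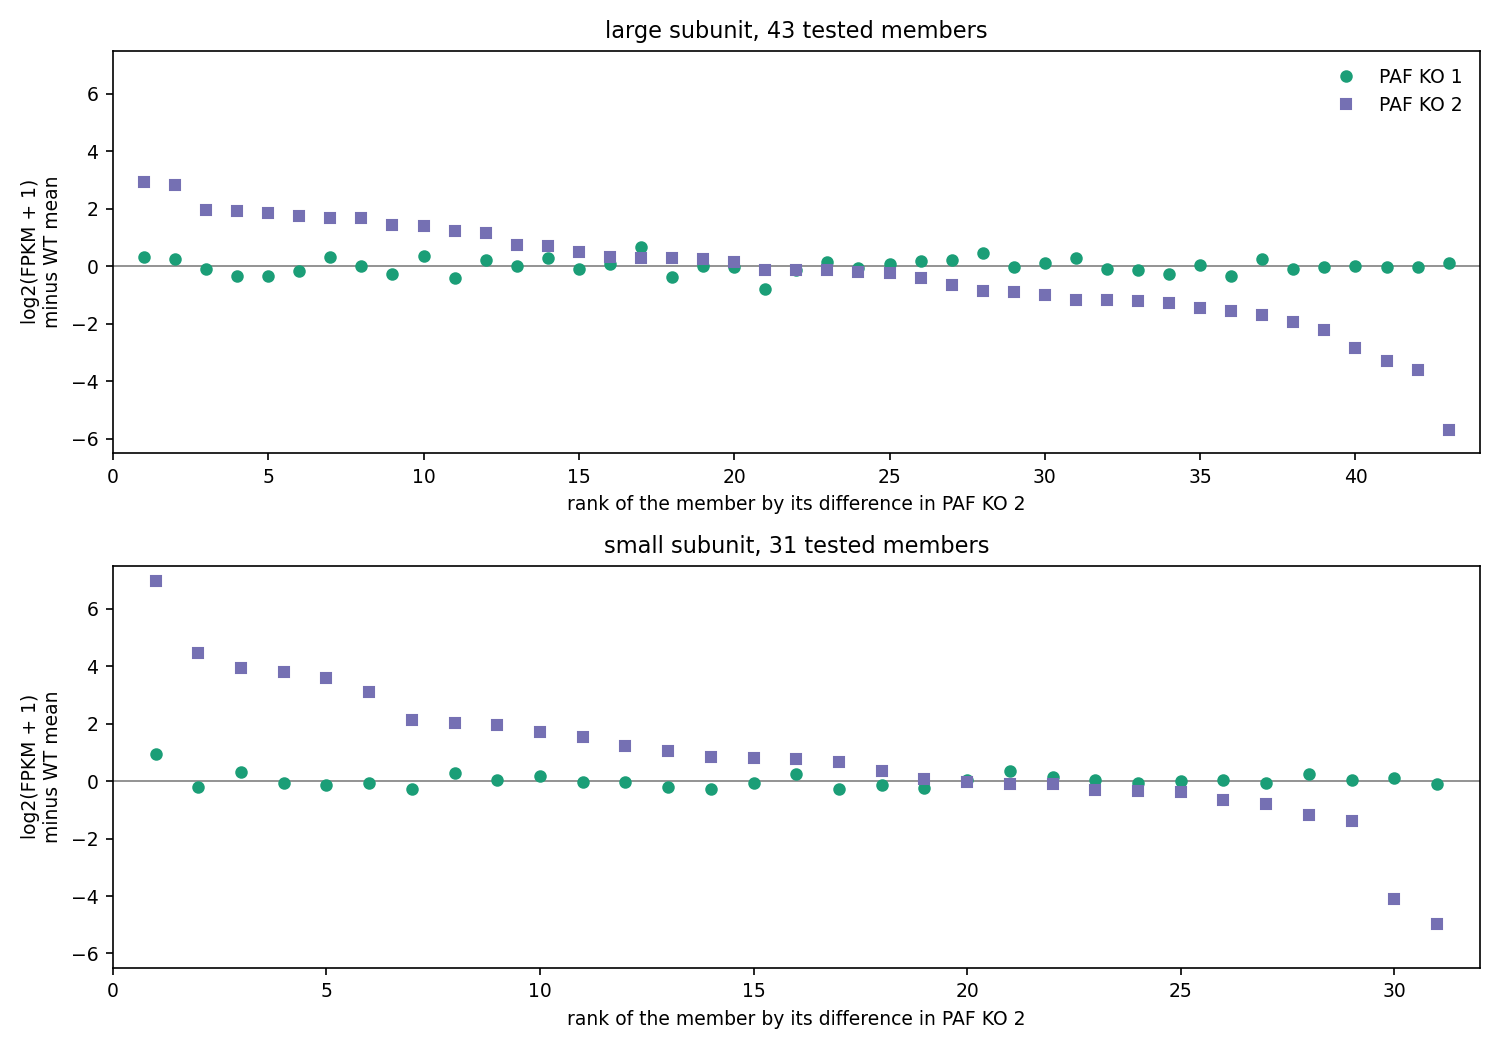
Difference of each PAF KO library from the WT mean on the log2(FPKM + 1) scale for the 43 tested large-subunit members (top) and 31 small-subunit members (bottom), ranked by PAF KO 2. PAF KO 1 (circles) stays between -0.79 and 0.94, and PAF KO 2 (squares) runs from -5.68 for Rpl7a to 6.97 for Rps28.

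The levels of the members were far from equal. The median member read 23.2 and 26.9 FPKM in PAF KO 1 and 2, against 24.2 and 25.8 FPKM in WT. In all 4 libraries 9 members were below 0.1 times the median member. Of these, Rpl3l, Rpl10l and Rpl39l are paralogs known from striated muscle and male germ cells; Rpl10l was listed at 0 in every library, Rpl39l reached 0.138 FPKM in PAF KO 2 and was otherwise at 0, and Rpl3l did not exceed 0.247 FPKM. Rpl9, Rpl11, Rpl17, Rpl24 and Rpl28, also among the 9, belong to every ribosome. Actb, for comparison, read 2335 and 1454 FPKM in PAF KO 1 and 2, against 1803 and 1890 FPKM in WT, whereas Gapdh, another gene with many pseudogenes, read 0.832 and 0.963 FPKM, against 1.33 and 1.60 FPKM.

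Those 5 rows look too low, and each has close pseudogene copies. Rpl9 read 0.456 and 0.489 FPKM in PAF KO 1 and 2, against 0.396 and 0.199 FPKM in WT, and has 12 annotated pseudogenes with at least 90% identity over 80% of its coding sequence. Rpl17 read 1.77 and 1.32 FPKM, against 1.81 and 1.27 FPKM, and has 50. Rpl24 read 1.12 and 0.908 FPKM, against 1.30 and 1.09 FPKM, with 5 copies, Rpl28 read 0.407 and 0 FPKM, against 0.471 and 0.533 FPKM, with 4, and Rpl11 has 8. In Rpl11, Rpl17, Rpl24 and Rpl28 every 100-base window of the coding sequence also occurs in a transcript of another gene, and in Rpl9 92.2% of windows do. The limit asked for a low value in all 4 libraries, so rows low in all but PAF KO 2 were left out. Rpl23a and Rps28 read at most 0.146 and 0.552 FPKM in WT, and have 33 and 9 such pseudogenes. Rpl10 did not meet the limit in every library, but read 0.922 to 5.13 FPKM and has 10. In Rpl23a, Rps28 and Rpl10 100% of these windows are shared. No source used here says how the authors' processing placed such reads, and whether the copies lowered these rows was not tested.

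Across the family, rows with more shared sequence were listed lower. Copies passing the same limits were found for 73 of the 80 members, 945 in all, with a median of 8 and up to 76 for Rpl21. Spearman's rho between the share of 100-base coding windows found in another gene and the mean WT level was -0.72 over 73 tested members, and -0.77 with 50-base windows over 74. These are values across genes of the same 2 libraries, not independent replicates. The 9 tested members with under 10% of windows shared had a median WT level of 490 FPKM and none below 68.0 FPKM, while the 26 with over 90% shared had a median of 5.48 FPKM. Exceptions existed among the highly shared rows, such as Rpl13a, with 97.3% of windows shared, at 560 and 1720 FPKM in PAF KO 1 and 2, against 731 and 754 FPKM in WT, and Rps16, with 100% shared.

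**Figure D4:**
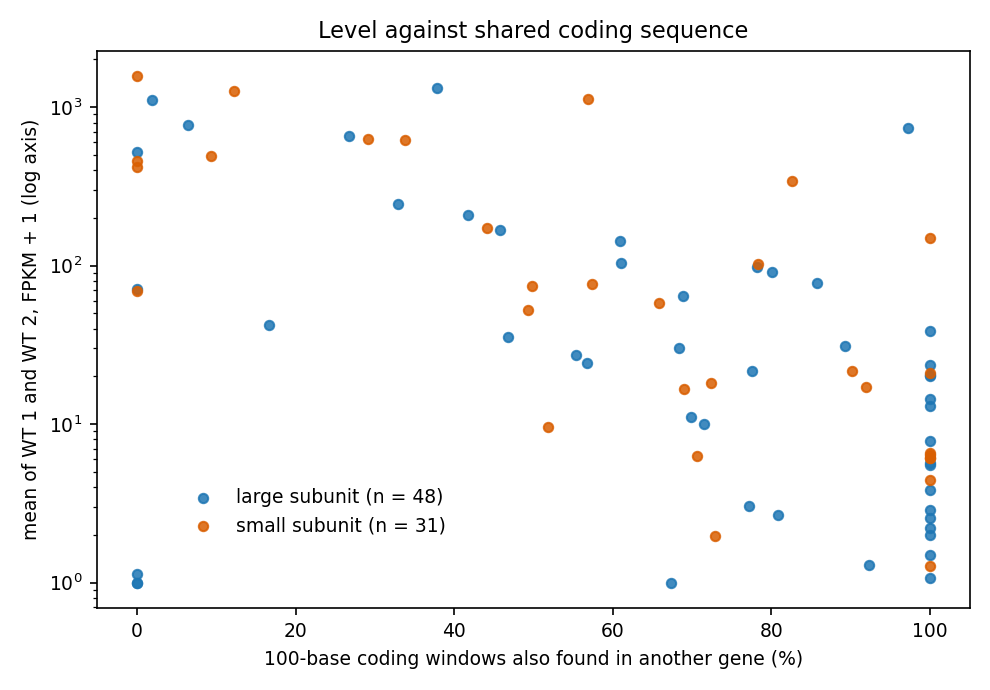
Mean WT level (FPKM + 1, log axis) of each ribosomal protein row against the percentage of 100-base windows of its coding sequence that also occur in a transcript of another gene; Rpl41 is too short for such a window. The tested rows at the left edge lie at 68.0 FPKM or more, the points at its foot are Rpl3l, Rpl10l and Rpl39l, of which the last 2 overlap at 0, and the 24 rows at 100% run from 0.0728 to 149 FPKM.

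With the absolute log2 difference from WT, rho of the shared percentage was 0.012 for PAF KO 2 and 0.12 for PAF KO 1. Directions were counted in classes that were set after the values were seen, with no test. All 9 tested members with under 10% of windows shared, among them Rpl4, Rpl8, Rpl22, Rpl32, Rps3, Rps21 and Rps27l, were higher in PAF KO 2 than the WT mean, with a median log2 difference of 1.42, whereas in PAF KO 1 2 were higher and 7 lower, with a median of -0.09. Rps21 read 467 and 1793 FPKM in PAF KO 1 and 2, against 440 and 478 FPKM in WT. Rpl32 read 410 and 1900 FPKM, against 463 and 584 FPKM. Of the 26 tested members with over 90% shared, 12 were higher and 14 lower in PAF KO 2, with a median of -0.10. With 10 to 50% shared 6 were higher and 7 lower, and with 50 to 90% shared 11 were higher and 14 lower. The direction thus did not change step by step with the shared percentage. Over all tested rows, 7482 were higher and 6214 lower in PAF KO 2.

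For 17 members a pseudogene copy had a row of its own in the table, 20 rows in all, of which 14 reached 1 FPKM in some library, and several of these rows held more signal than the gene they copy. Gm10653, a transcribed pseudogene of Rps2 at chr9:62841477-62868000 (GRCm38, minus strand), read 318 and 0.116 FPKM in PAF KO 1 and 2, against 296 and 295 FPKM in WT. Rps2 itself (chr17:24718116-24721929, plus strand) had the mirror image, so that the pair summed to 337 and 253 FPKM in PAF KO 1 and 2, against 312 and 311 FPKM in WT. For this pair PAF KO 2 thus differed far less from the other libraries in the sum than in either row. FPKM is scaled to the length of each row, so such a sum is only a rough guide. Aligned over the coding sequence the copy is 91.6% identical to Rps2, a share that counts gaps in the alignment as unlike. Gaps left aside, 27 letters differ, where the coding sequence of Rps2 has 879 bases. The stretch shown, coding bases 421 to 510 of Rps2, is more alike than the whole, and capitals mark the 2 letters that differ there.
Rps2: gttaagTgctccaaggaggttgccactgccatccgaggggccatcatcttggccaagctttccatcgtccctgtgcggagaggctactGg
Gm10653: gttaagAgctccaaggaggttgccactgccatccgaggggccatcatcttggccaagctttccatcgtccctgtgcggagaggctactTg

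Rpl34 (chr3:130726831-130730398, minus strand) read 31.5 and 14.3 FPKM in PAF KO 1 and 2, against 30.8 and 38.5 FPKM in WT. Its copy Rpl34-ps1 (chr6:71124610-71124963, plus strand) was listed above the gene in 3 libraries, at 182 and 0.347 FPKM in PAF KO 1 and 2, against 228 and 246 FPKM in WT. Gene and copy were both lowest in PAF KO 2, unlike Rps2 and Gm10653. Their sum was 213 and 14.7 FPKM in PAF KO 1 and 2, against 258 and 285 FPKM in WT. Coding bases 87 to 176 differ in 1 letter, in capitals.
Rpl34: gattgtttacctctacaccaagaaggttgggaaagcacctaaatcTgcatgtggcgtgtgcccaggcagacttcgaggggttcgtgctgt
Rpl34-ps1: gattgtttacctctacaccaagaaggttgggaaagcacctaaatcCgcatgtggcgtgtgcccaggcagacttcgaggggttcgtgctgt

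Rpl36 (chr17:56613416-56614243, plus strand) showed the opposite order. It read 9.36 and 3.89 FPKM in PAF KO 1 and 2, against 9.15 and 10.98 FPKM in WT, and its copy Gm13611 (chr2:32271845-32272162, plus strand) was at 0 and 123 FPKM, and at 0 in both WT libraries. The signal of the copy was therefore seen in PAF KO 2 alone among the 4 libraries. Gene and copy summed to 9.36 and 127 FPKM in PAF KO 1 and 2, against 9.15 and 10.98 FPKM in WT. Coding bases 21 to 110 differ in 3 letters, in capitals.
Rpl36: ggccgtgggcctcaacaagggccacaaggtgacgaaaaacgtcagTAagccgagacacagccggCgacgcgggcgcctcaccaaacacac
Gm13611: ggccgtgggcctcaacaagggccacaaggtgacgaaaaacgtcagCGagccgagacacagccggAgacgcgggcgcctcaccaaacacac

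**Figure D5:**
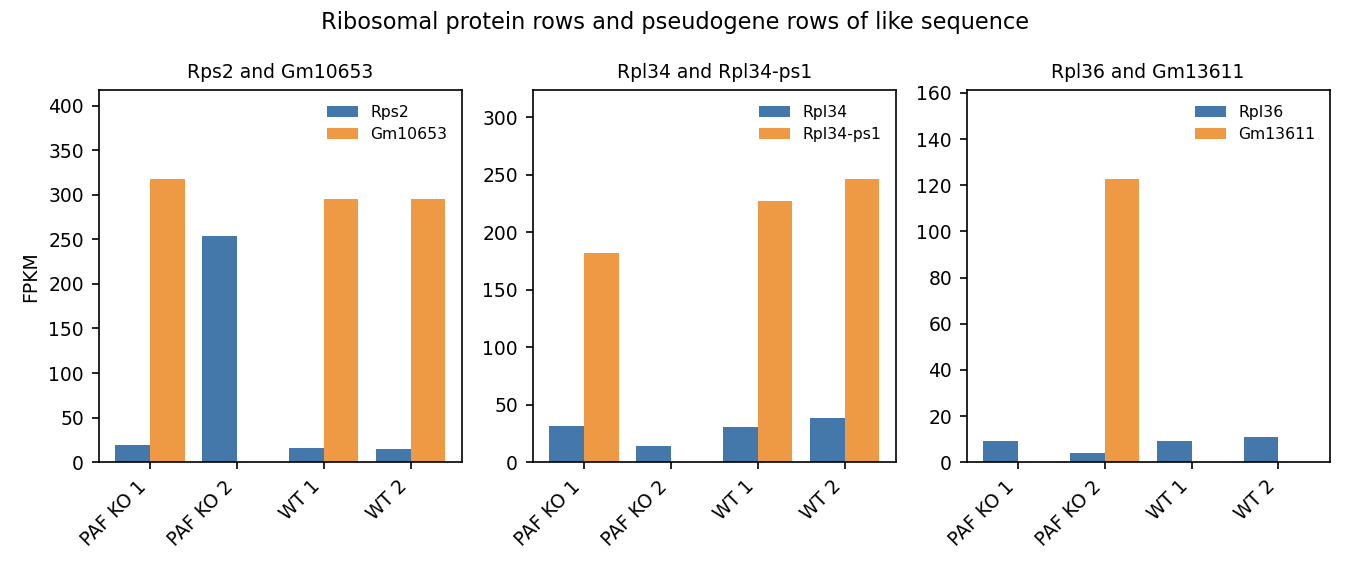
FPKM of 3 ribosomal protein rows (blue) and of a pseudogene row with 91.6% (Gm10653) to 99.4% (Rpl34-ps1) identity to the gene (orange) in each library, on linear axes. Gm10653 holds 296 to 318 FPKM in PAF KO 1 and WT and 0.116 in PAF KO 2, where Rps2 holds 253.

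Introns of ribosomal protein genes also carry small nucleolar RNAs (snoRNAs), which guide modification of rRNA. The table listed 29 rows of snoRNAs or the related scaRNAs that lie within 22 of the member genes on the same strand. In PAF KO 2 all 29 were listed at 0, and in PAF KO 1 15 were, against 12 in WT 1 and 10 in WT 2. Of 77 snoRNA rows elsewhere, 71 were listed at 0 in PAF KO 2 and 40 in PAF KO 1, against 49 in WT 1 and 47 in WT 2, so rows outside ribosomal protein genes were also mostly at 0 in PAF KO 2. Limma called 2 of the 44 tested snoRNA rows elsewhere and 0.0729% of all tested rows. Of the 23 tested snoRNA rows within members it called 2, Snord42b in Rpl23a and Snord58b in Rpl17. Each was listed at 0 in both PAF KO libraries, against 2139 FPKM in WT 1 and 1611 FPKM in WT 2, with limma adjusted p = 0.00661. With both PAF KO values at 0, that group gave no spread to the test. The values of these rows were identical in all 4 libraries although the genes lie on chromosomes 11 and 18. The 2 calls therefore cannot be taken as separate results. The host rows did not share the pattern, as the values of Rpl17 and Rpl23a above show.

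Among other genes of the cytosolic ribosome and its paralogs, outside the symbol rule, Fau, Rpl22l1 and Rpl7l1 lay farther from WT in PAF KO 2 than in PAF KO 1. Fau, which encodes Rps30 fused to a ubiquitin-like protein, read 17.6 and 6.18 FPKM in PAF KO 1 and 2, against 15.2 and 15.7 FPKM in WT. Gnb2l1 (Rack1), a scaffold on the small subunit, read 955 and 1195 FPKM, against 1080 and 1046 FPKM, and so differed little. The paralogs Rpl22l1 and Rpl7l1 read 17.2 and 86.6 FPKM, against 27.5 and 22.3 FPKM in WT, and 34.2 and 56.4 FPKM, against 32.3 and 31.9 FPKM. Over the 7 rows of this list, 0 were called and 4 were past 2-fold in PAF KO 2, beside 0.0729% and 20.9% of all tested rows.

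Related gene groups were less dispersed in PAF KO 2 than the ribosomal proteins, though the difference between lists was not tested. Of 42 translation factors, 13 were past 2-fold in PAF KO 2 and 0 in PAF KO 1, with a median log2 fold change of 0.13. Of 74 ribosome assembly genes the counts were 14 and 0, with a median of 0.23, and of 74 mitochondrial ribosomal proteins 19 and 0, with a median of 0.29, beside 0.00 over all tested rows. Over all tested rows, 20.9% were past 2-fold in PAF KO 2 and 7.42% in PAF KO 1. Ribosome assembly genes, at 18.9%, and mitochondrial ribosomal proteins, at 25.7%, were near that share in PAF KO 2. Translation factors, at 31.0%, were above it. Limma called 0 rows in each of these lists, beside 0.0729% of all tested rows. Each list held 2 rows at an unadjusted p under 0.05, where 13.2% of all tested rows had such a p. Of 10 genes of the S6 kinase and TOR axis, with which Myc was listed, 2 had positive and 8 negative fold changes, with a median of -0.32, 0 calls and 2 at an unadjusted p under 0.05. The next genes were chosen after their values were seen. Eef2, the translocation factor, read 1181 and 900 FPKM in PAF KO 1 and 2, against 2011 and 2013 FPKM in WT (log2 fold change -0.96, SE 0.269; limma adjusted p = 0.325), and Ncl, the nucleolar protein nucleolin, read 59.9 and 115 FPKM, against 50.6 and 47.9 FPKM. Myc, a regulator of the family, read 39.0 and 31.1 FPKM, against 58.7 and 59.7 FPKM in WT (-0.75, SE 0.189; limma adjusted p = 0.309). Both PAF KO values of Eef2 and of Myc lay below both WT values.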

How the data were processed

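RNA from small-intestinal adenomas was sequenced in 4 libraries, 2 per genotype. The authors deposited FPKM values per gene, made with TopHat2 and Cuffdiff on mm9, per the submitters' processing notes; no source used here gives versions, settings, read length or the handling of multiply mapped reads. The table held 29955 rows, and 84 repeats of a symbol were dropped in favour of the more highly listed row. Rows that averaged 1 FPKM or more were tested with limma 3.58.1 (R 4.3.3, trended empirical Bayes) on log2(FPKM + 1), with Benjamini-Hochberg adjustment over 13716 rows and calls at 0.05. The procedure was tested on simulated data, where it missed most changes of up to 4-fold and many larger ones. Only rows well above the filter on low values were changed there. Sequences and annotation came from GENCODE M21 on GRCm38, used for names, shared sequence and pseudogenes (blastn 2.17.0) and not for the deposited coordinates. All 80 members matched the annotation.

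Members and gene lists were chosen with earlier results of these data known. The text names members by role, by abundance, among the lowest rows, and, per subunit, up to 6 in each direction with the largest fold change and no overlap between groups. Rpl4, Rpl7a, Rpl13a, Rpl19, Rpl32, Rpl36a, Rpl37, Rps21 and the pseudogene rows were added after their values were seen. Some members that these rules name are not reported here.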

Additional observations from a re-analysis of the deposited data

How the results depend on the processing

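The count of 10 called rows over the whole table was 5 with no filter on low values and 0 with protein-coding rows alone or with the trend in length and GC removed; leaving out each library in turn gave 0 to 8397, with 0 without WT 1 or WT 2, 2833 without PAF KO 2 and 8397 without PAF KO 1. For large-subunit members, 0 called became 0 to 32 when a library was left out, and for small-subunit members 0 to 23, in both cases highest without PAF KO 1. The 9 members below 0.1 times the median member became 15 and 3 with the limit set at 0.2 and 0.01 times. The fold changes of the 16 members named for theirs kept their direction under every alternative run. These 16 were picked because their groups did not overlap. Leaving out a library or changing the pseudocount therefore could not turn their direction, and the stability is no support for a difference. With the replicate number as a block, 13 rows were called and 0 members; the differences between replicates 1 and 2 correlated at r = -0.115 across the genotypes, so the numbers did not establish a pairing. With crossed numbers, an alternative chosen after seeing the data, 13 rows were called. With 2 libraries per group and rows that share reads with other genes, the depth estimates do not set the precision of the members' values, and leaving out 1 library leaves a lone library assumed to vary like the other genotype.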
